A study of Saccharomyces cerevisiae with 5 samples.

Results

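The genes examined here encode proteins of the mitochondrial ribosome of Saccharomyces cerevisiae. They were taken by symbol, as the probes whose platform gene name is MRPL, MRPS, RSM or MRP followed by a number, with MRP8 left out. This gave 56 genes, each with 1 probe, of 6249 genes and unnamed probes on the array. RefSeq has 67 protein-coding symbols of this pattern before MRP8 is left out, so the 56 are not all such genes. Whether the others lie among the unnamed probes was not tested, and the family below means the 56. Of the 56, 33 were counted with the large subunit and 23 with the small subunit. The measurement was the ratio of polyadenylated RNA between 2 cultures on 5 two-colour oligonucleotide arrays, 1 array for each comparison and no replicate. On 3 arrays a strain without SIW14, the gene of an inositol pyrophosphate phosphatase, was compared with wild type BY4741: both strains unstressed, both in 0.4 mM hydrogen peroxide, or both in 0.4 M KCl. On the other 2 arrays the wild-type strain ACY044 in peroxide or in KCl was compared with unstressed ACY044 cells. The stress of each channel was taken from its treatment entry and the array title, since the source names give only the medium, SD, for stressed and unstressed cells alike. Stress lasted 20 min in synthetic complete medium at log phase. Mutant or stressed RNA was in the Cy5 channel and wild-type or unstressed RNA in Cy3 throughout, and no array had the dyes swapped, so that dye and condition cannot be told apart. The labels do not say whether the mutant was 1 clone or several.

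The mitochondrial ribosome translates the few proteins encoded by mitochondrial DNA, nearly all of them core subunits of the respiratory chain and ATP synthase. Its RNAs come from the mitochondrial genome, but all its proteins except Var1 are made in the cytosol from nuclear genes and imported. Some of these proteins have counterparts in every ribosome, some only in bacterial ribosomes, and some occur only in mitochondria. In yeast the genes are known to follow a programme of their own, apart from cytosolic ribosomal protein genes.

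All values are log2 ratios of Cy5 over Cy3 unless stated, so that 1 is 2-fold. No test across replicates was possible, and a gene is counted as higher or lower at 2-fold by a rule of size only. SIW14 lay at -2.07, -1.66 and -2.06 on the unstressed, peroxide and KCl arrays of the mutant and at 0.28 and -0.22 on the peroxide and KCl arrays of the wild type. Missing values made up 1.63% to 10.4% of the 6256 yeast probes per array, whereas all 56 genes had a value on all 5 arrays. Array medians over all genes lay between -0.02 and 0.03. The E1A control features, which are not yeast genes, had medians of 2.08 (3 features), 1.17 (7) and 0.98 (9) on the unstressed, peroxide and KCl mutant arrays, against -0.37 (10) and 0.15 (6) in wild type with peroxide and KCl. Single features ran from 1.68 to 2.35, from -2.01 to 2.28 and from -0.86 to 2.54 on those mutant arrays. In wild type they ran from -0.69 to -0.17 with peroxide and from -1.06 to 0.44 with KCl. The part of these features in the results on the mutant was not tested.

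Across the 5 arrays the mitochondrial ribosomal protein genes lay slightly to moderately above 0 and close to each other. Their median was 0.61 for wild type in peroxide, 0.54 for the mutant against wild type in peroxide, 0.38 for the mutant in KCl, 0.25 for the unstressed mutant and 0.06 for wild type in KCl. The interquartile range of the 56 genes was 0.27 to 0.42 log2 units on an array, while over all genes it was 0.52 to 1.04. On all 5 arrays 30 of 56 lay above 0, against 22.3% of the 5437 genes with 5 values. None was 2-fold or more lower on any array.

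**Figure D1:**
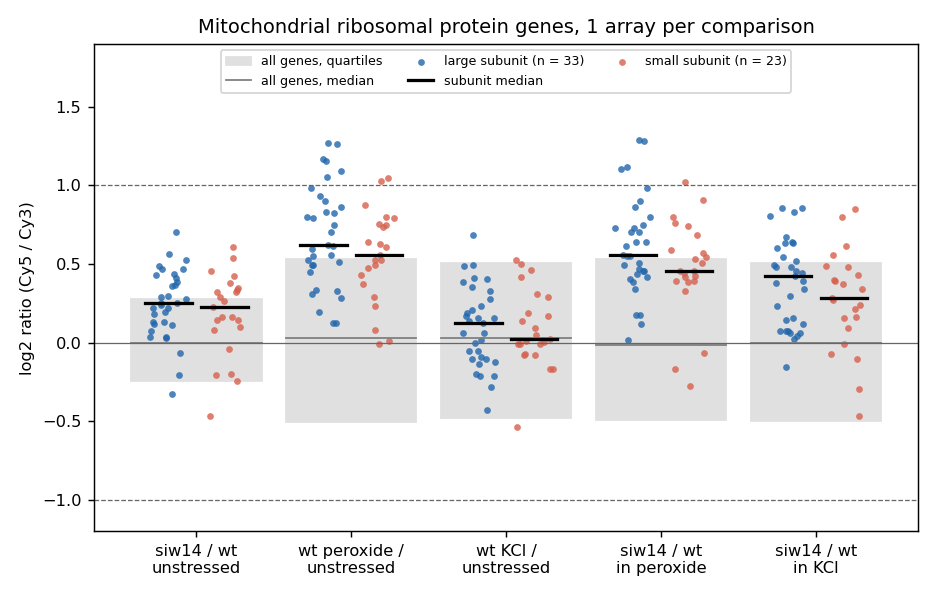
Log2 ratio (vertical axis) of the 33 large subunit genes (blue) and 23 small subunit genes (red) on each of 5 arrays (horizontal axis), with black bars for subunit medians, a grey box for the quartiles of all genes and dashed lines at 2-fold. The points lie highest for wild type in peroxide, where 55 of 56 are above 0, and centre on 0 for wild type in KCl.

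Wild-type cells in peroxide, compared with unstressed cells, had nearly all of the 56 genes higher. The median of 0.61 (order-statistic 95% interval over genes 0.53 to 0.75) is 1.53-fold, and 55 of 56 genes lay above 0, against 51.1% of all genes. Such an interval describes how the genes scatter on 1 array and holds no error between cultures. Because whole cultures were measured, a change in RNA per cell and a change in the make-up of the culture cannot be told apart. Of the 56, 8 were 2-fold or more higher, against 10.7% of all genes, a share near the background, and 0 were 2-fold or more lower, against 11.3%. At 1.5-fold or more, 30 of 56 were higher, against 22.9% of all genes, and 0 were lower, against 22.2%.

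The highest member in peroxide was MRPL25, a mitochondria-specific protein of the large subunit, at 1.27 or 2.42-fold. MRPL38, the counterpart of bacterial L14 at the interface of the subunits, lay at 1.26, MRPL40 of the peptide exit tunnel at 1.17 and MRPL16, which lies near the peptidyl transferase centre, at 1.15. MRPL28 and MRPL27, both specific to mitochondria, lay at 1.09 and 1.06. The small subunit genes past 2-fold were RSM25 at 1.05 and RSM10, the counterpart of bacterial S10 in the head of the subunit, at 1.03. MRPL23 at 0.98 lay just outside the limit.

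At the other end, MRPS9 and RSM18 lay at -0.01 and 0.01 in wild-type cells with peroxide, RSM19 at 0.08 and MRPL15 at 0.13. MRPS9, RSM18 and RSM19 correspond to S9, S18 and S19 of the bacterial small subunit, and MRPL15 has an RNase III fold. All 33 large subunit genes lay above 0, with a median of 0.62, and 22 of 23 small subunit genes did, with a median of 0.56.

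Wild-type cells in KCl had the family close to the unstressed level. Its median was 0.06 (-0.01 to 0.17), 35 of 56 genes lay above 0, against 52% of all genes, and 53 of 56 lay within the quartiles of all genes. No gene passed 2-fold, against 11.5% of all genes higher and 11.7% lower. At 1.5-fold or more 1 was higher, against 21.8% of all genes, and 0 lower, against 21.1%. MRP20, a protein of the exit tunnel to which nascent chains pass, was highest at 0.68, followed by RSM28 at 0.53, MRP10, a twin-cysteine protein imported through Mia40, at 0.50 and MRP49 at 0.49. RSM22, a methyltransferase-like protein counted here with the small subunit, was lowest at -0.53. MRPL20 followed at -0.43, then MRPL19 of the stalk base at -0.28 and MRPL13 at -0.21.

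The wild-type peroxide and KCl arrays share the label of their unstressed control, so their values are set side by side without a measure of association. The ratio was higher in peroxide than in KCl for 54 of 56 genes, against 51.1% of all genes, with a median difference of 0.55 (0.44 to 0.65). It reached 2-fold for 5 genes, against 8.32% of all genes, and 0 differed by 2-fold the other way, against 9.37%. MRPL25 lay at 1.27 in peroxide and 0.14 in KCl, MRPL27 at 1.06 and -0.05, and MRPL19 at 0.79 and -0.28. The exceptions were RSM19, at 0.08 in peroxide and 0.17 in KCl, and MRPL10, at 0.31 and 0.38. MRPL36, which corresponds to bacterial L31, lay at 0.50 and 0.49. The subunits differed somewhat in this gap, with a median of 0.64 for the large and 0.45 for the small one, and their intervals overlapped (0.46 to 0.74 and 0.27 to 0.61).

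In unstressed cells the siw14 mutant had most of these genes slightly above wild type. Of the 56, 48 lay above 0, against 50% of all genes, and the median of 0.25 (0.16 to 0.32) is 1.19-fold. None reached 2-fold in either direction, against 6.18% of all genes higher and 1.55% lower. This array had the narrowest spread, and with all arrays centred and scaled to a common spread the median was 0.44 and 3 members passed 2-fold, against 12.3% of all genes. At 1.5-fold or more 2 were higher, against 11.8% of all genes, and 0 lower, against 6.53%. MRPL6, whose bacterial counterpart L6 lies near the site where translation factors bind, was highest at 0.71. MRP2 (bacterial S14) lay at 0.61, MRPL23 (bacterial L13) at 0.56 and MRP21 (bacterial S21) at 0.54.

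In the unstressed mutant 8 genes lay below 0, and 5 of them belong to the small subunit. RSM19 was lowest at -0.47, followed by MRPL4 of the exit tunnel at -0.33, RSM22 at -0.24 and RSM7, the counterpart of bacterial S7, which binds the head of small subunit RNA, at -0.21.

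With both strains labelled as treated with peroxide, the mutant again had most of the family above wild type. The median was 0.54 (0.45 to 0.64), or 1.45-fold, and 0.49 at the common spread, where the unstressed median was 0.44. Of the members, 53 of 56 lay above 0, against 49.2% of all genes. At 2-fold or more 5 were higher, against 12.8% of all genes, and 0 were lower, against 8.3%. At 1.5-fold or more 23 were higher, against 23.2% of all genes, and 0 lower, against 20.9%. The 5 past 2-fold were MRPL38 at 1.29, MRPL23 at 1.28, MRPL6 at 1.12, MRPL25 at 1.10 and RSM25 at 1.02, with MRPL28 just outside at 0.98. Of these, 3, MRPL25, MRPL38 and RSM25, are also among the 8 past 2-fold for wild type in peroxide, which is 37.5% of the 8 and 60% of the 5. Over all genes with both values, those past 2-fold on both arrays were 56.5% and 46.6% of the corresponding lists. The peroxide-treated wild type stands in the numerator of one array and the denominator of the other, from strains that the labels name differently. The genes below 0 in the mutant in peroxide were MRP13 at -0.28, RSM19 at -0.17 and RSM22 at -0.07, all of the small subunit.

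With both strains in KCl, 50 of 56 genes lay above 0 in the mutant, against 49.8% of all genes, with a median of 0.38 (0.24 to 0.45), or 1.30-fold. No gene passed 2-fold, against 11.4% of all genes higher and 11% lower. At 1.5-fold or more 12 were higher, against 21.9% of all genes, and 0 lower, against 21.3%. MRPL6 and MRPL25 lay at 0.85 each, as did RSM18, and MRPL38 at 0.83. RSM7 was lowest at -0.47, then RSM22 at -0.30, MRPL11 of the stalk base at -0.16 and MRP13 at -0.10. MRPL6, MRPL25 and MRPL38 were among the 4 highest on both stressed mutant arrays, and RSM22 and MRP13 among the 4 lowest.

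**Figure D2:**
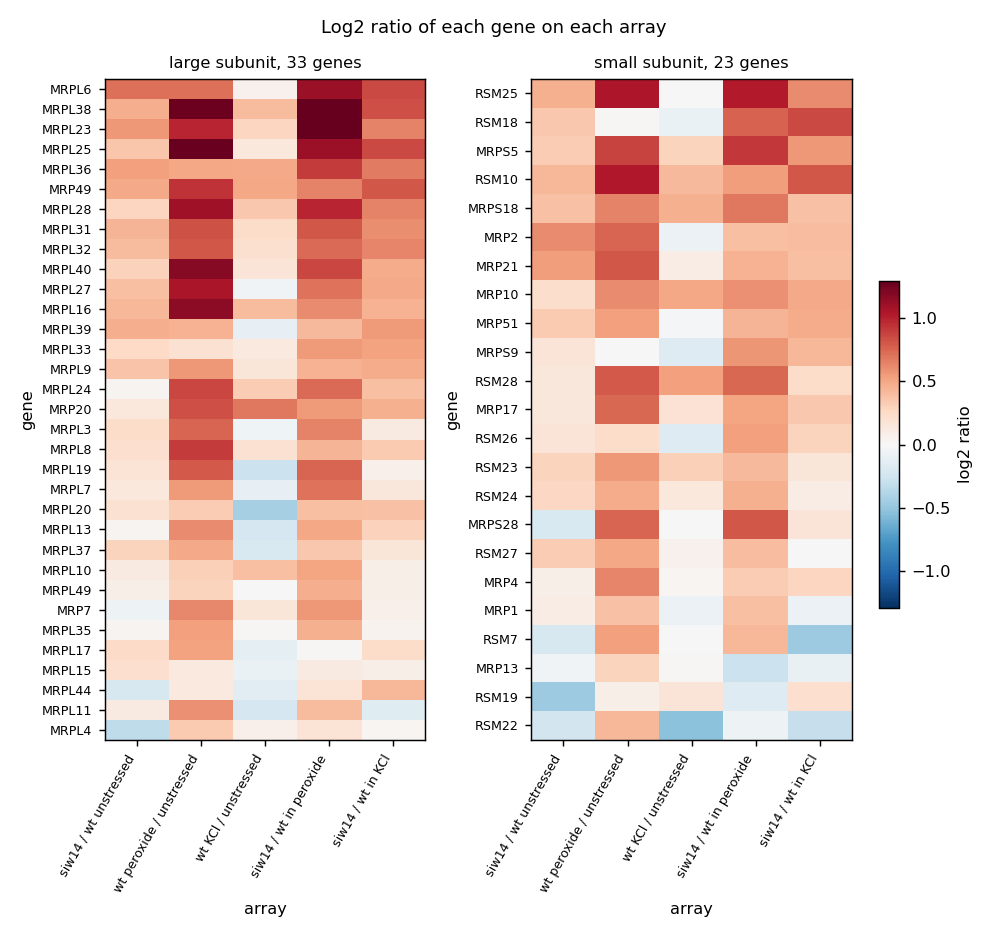
Log2 ratio (colour) of each gene (rows) on each of 5 arrays (columns), for the large subunit (left) and the small subunit (right), ordered by the mean of the 3 mutant arrays. MRPL6 and RSM25 head their subunits, and MRPL4 and RSM22 close them.

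On all 3 mutant arrays 45 of 56 genes lay above 0, against 32% of the genes with 3 values. They made up 29 of 33 large subunit genes and 16 of 23 small subunit genes. MRP13 and RSM22 were the only members below 0 on all 3. Averaged over the 3 mutant arrays, MRPL6 was highest at 0.89, then MRPL38 at 0.86, MRPL23 at 0.83 and MRPL25 at 0.77, and RSM22 was lowest at -0.20. Across the 56 genes, Pearson's r was 0.67 between the unstressed and KCl mutant arrays, 0.58 between unstressed and peroxide, and 0.63 between peroxide and KCl. Over all genes the same r was 0.67, 0.70 and 0.72. These describe genes on arrays that share the mutant, the dye orientation and the probes, and genes are not independent replicates.

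The excess in the mutant was compared between conditions by subtraction of arrays. From unstressed to peroxide it was larger for 50 of 56 genes, against 48.1% of all genes, with a median difference of 0.36 (0.29 to 0.41), which was 0.16 at the common spread. MRPS28, the counterpart of bacterial S15, lay at -0.20 unstressed and 0.80 in peroxide, the only member whose difference reached 2-fold, against 5.09% of all genes higher. None reached it downwards, against 3.94%. MRPL38 differed by 0.82 and MRPL25 by 0.74, while MRPL17, MRP13 and MRP2 had differences of -0.24, -0.23 and -0.22.

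From unstressed to KCl the excess was larger for 39 of 56 genes, against 49.3% of all genes, and the median difference was 0.12 (0.01 to 0.18). None differed by 2-fold, against 4.06% of all genes upwards and 7.83% downwards. The median was -0.08 at the common spread, so its direction depends on the scale. RSM19 lay at -0.47 unstressed and 0.21 in KCl, MRPL44 at -0.20 and 0.43, and RSM18 at 0.34 and 0.85. RSM27 went from 0.33 to -0.01 and MRPL11 from 0.12 to -0.16. The excess was larger in peroxide than in KCl for 45 of 56 genes, against 52.3% of all genes, with a median difference of 0.22 (0.14 to 0.34). None reached 2-fold, against 7.26% of all genes upwards and 3.79% downwards. RSM7 lay at 0.42 in peroxide and -0.47 in KCl, MRPL19 at 0.75 and 0.06, and MRPL23 at 1.28 and 0.64.

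Several members stood apart from the family in their profile over the arrays. RSM22 was the farthest, with values of -0.24, 0.43, -0.53, -0.07 and -0.30 in the order of unstressed mutant, peroxide and KCl in wild type, then peroxide and KCl in the mutant. Its mean absolute distance from the family median was 0.51, against 0.08 for MRP17, the nearest member. RSM18 in the same order lay at 0.34, 0.01, -0.08, 0.76 and 0.85, so that it was near 0 on both wild-type arrays, ranked 12 of 56 in the mutant in peroxide and 3 of 56 in the mutant in KCl. MRPL38, at 0.47, 1.26, 0.41, 1.29 and 0.83, was above the family median on every array.

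Grouped by role, the 3 exit tunnel proteins differed from each other, but not clearly more than the members at large. Their standard deviation was 0.33 in the unstressed mutant and 0.26 in the mutant in KCl, against 0.24 and 0.30 for the 56 genes. MRP20 lay at 0.13, 0.83, 0.68, 0.55 and 0.45 in the order above, MRPL40 at 0.30, 1.17, 0.17, 0.86 and 0.48, and MRPL4 at -0.33, 0.34, 0.06, 0.18 and 0.03. All are above 0 on the 4 arrays with stress. Near the peptidyl transferase centre, MRPL16 lay at 0.43, 1.15, 0.41, 0.61 and 0.44 and MRP7 at -0.06, 0.62, 0.16, 0.56 and 0.06, with MRPL16 above MRP7 on every array. Of the stalk base proteins, at the site where translation factors act, MRPL11 lay at 0.12, 0.59, -0.21, 0.41 and -0.16, and MRPL19 at 0.18, 0.79, -0.28, 0.75 and 0.06. Both were above 0 on the peroxide arrays and below 0 for wild type in KCl.

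MRP1 and RSM26, small subunit proteins with a superoxide dismutase fold, were not among the higher members in peroxide. MRP1 lay at 0.10, 0.37, -0.07, 0.39 and -0.07 and RSM26 at 0.17, 0.23, -0.17, 0.53 and 0.28, so both were below the family median for wild type in peroxide. RSM23, a GTP-binding protein of the DAP3 family, lay at 0.29, 0.56, 0.31, 0.42 and 0.16. MRPL32, which the m-AAA protease matures before it joins the ribosome, lay at 0.41, 0.80, 0.21, 0.73 and 0.63. Of the members with an RNase III fold, MRPL3 lay at 0.24, 0.75, -0.05, 0.64 and 0.12 and MRPL15 at 0.22, 0.13, -0.09, 0.12 and 0.07, apart in peroxide and close elsewhere.

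By conservation, the 22 members found in all ribosomes, the 11 shared with bacteria and the 22 specific to mitochondria had similar medians. For wild type in peroxide these were 0.67, 0.62 and 0.54, and in the peroxide-treated mutant 0.56, 0.51 and 0.48. In the unstressed mutant they were 0.22, 0.34 and 0.25, and for the mutant in KCl 0.42, 0.39 and 0.26. For wild type in KCl they were 0.14, 0.16 and 0.01. Their intervals over genes overlapped on every array. RSM22 belongs to none of the 3 classes and, unlike the other members, has no ribosomal protein family name.

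Shorter genes had the higher median on all 5 arrays, most clearly in the unstressed and KCl mutant, and the rule of membership did not use length. Coding length here is the RefSeq span from start to stop codon, which counts an intron where a gene has one, and it ran from 213 bases (MRPL39) to 1887 bases (RSM22). Spearman's rho with length was -0.42 for the unstressed mutant and -0.47 for the mutant in KCl, but -0.15 for the mutant in peroxide, -0.08 for wild type in peroxide and -0.08 for wild type in KCl. The 28 shorter genes had a median of 0.37 in the unstressed mutant and 0.49 in the mutant in KCl, and the 28 longer ones 0.13 and 0.16. The shorter and longer genes had medians of 0.75 and 0.56 for wild type in peroxide, 0.15 and 0.01 for wild type in KCl, and 0.60 and 0.48 for the mutant in peroxide. Over all named genes with a length, rho was -0.26 for the unstressed mutant, -0.15 for the mutant in KCl, -0.30 for the mutant in peroxide, -0.22 for wild type in peroxide and -0.03 for wild type in KCl. The 56 points share their array, and RNA quality and probe position were not tested. In position, the genes were spread over 14 chromosomes, with 11 on chromosome IV, and no pair of members stood next to each other in the RefSeq gene order.

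**Figure D3:**
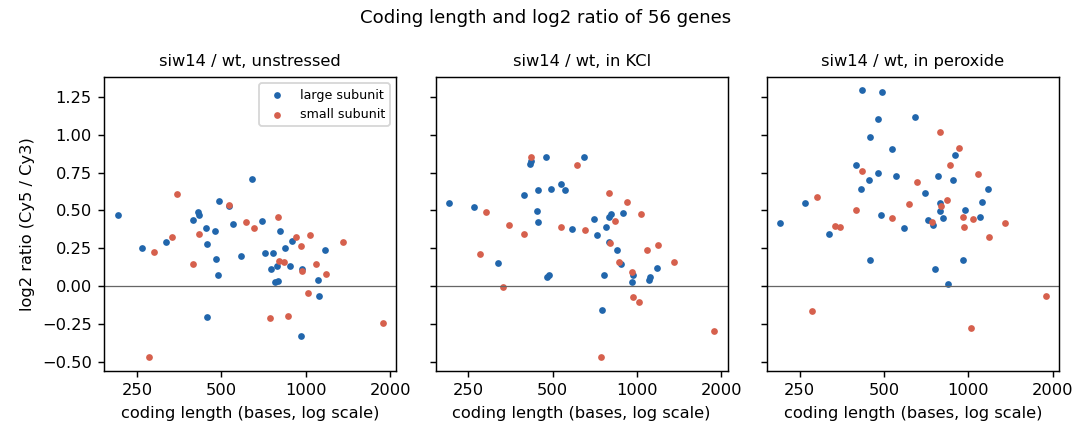
Log2 ratio (vertical axis) against coding length in bases (horizontal axis, log scale) for the 56 genes on the 3 mutant arrays, coloured by subunit. Points fall from left to right in the unstressed and KCl panels (rho -0.42 and -0.47) and less so in peroxide (-0.15).

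Mitochondrial ribosomal proteins with other symbols gave similar medians but held wider extremes. This list, drawn up from general knowledge, had 9 genes with a value, and its medians were 0.36, 0.54, 0.04, 0.81 and 0.46 in the order above. VAR1, the only ribosomal protein gene on mitochondrial DNA, lay at -1.23, -1.53, -0.81, -1.21 and -0.46. These values were below every nuclear member on the first 4 of these arrays. Polyadenylated RNA was measured, and how far it holds a transcript of mitochondrial DNA was not tested, so VAR1 may not be comparable with nuclear genes. FYV4, a small subunit protein gene, lay at 1.60 in the unstressed mutant, 1.81 in the mutant in peroxide and 1.26 in the mutant in KCl, above all 56 genes on each of these, yet at -0.17 for wild type in KCl. PET123, also of the small subunit, lay at 0.36, 0.54, 0.04, 0.61 and 0.30, close to the family median throughout. By mean absolute difference over the 5 arrays among 3750 named genes outside the family, the genes nearest to the family median were STE50 at 0.07, CTF8 at 0.07 and PET123 at 0.07.

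Other genes of mitochondrial translation went partly with the ribosomal proteins. The 12 (11 in wild type with KCl) mitochondrial aminoacyl-tRNA synthetase genes, which charge tRNAs for this ribosome, had medians of 0.16, 0.76, 0.43, 0.48 and 0.37 in the same order. MSF1, for phenylalanine, was the only one at 2-fold or more in wild type with peroxide, at 1.37, and MSK1, for lysine, the only one in wild type with KCl, at 1.08. A further list of 9 genes, translation factors together with other genes of mitochondrial translation, had medians of 0.05, 0.42, 0.24, 0.21 and 0.47. Of its genes that are not translation factors, PET112 lay at 1.02 in wild type with peroxide. The formyltransferase gene FMT1, also not a factor, lay at -0.75 in the unstressed mutant.

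Activators that act on single mitochondrial mRNAs were set beside the ribosomal proteins in the same way. The 15 genes had a median of 0.10 in peroxide and 0.29 in KCl, and 12 of 15 had the lower ratio in peroxide, against 2 of 56 ribosomal protein genes and 48.9% of all genes. In the mutant their medians were 0.25 unstressed, 0.32 in peroxide and 0.42 in KCl. CBP6, which binds near the tunnel exit and acts on cytochrome b, lay at 0.70, 1.14 and 1.33 on those arrays, and CBP1, which stabilises cytochrome b mRNA, at -0.50, -0.57 and -0.22. The 11 genes for ribosome assembly, mitochondrial transcription and membrane insertion had medians of -0.18, 0.01, -0.12, 0.24 and -0.16. Among them MTG1, a GTPase gene of large subunit assembly, lay at 0.65, 1.11, 0.45, 1.15 and 0.76 and MBA1, for a ribosome receptor of the inner membrane, at 1.27 in the mutant in peroxide. RPO41, the mitochondrial RNA polymerase gene, lay at -0.70 in wild type with peroxide.

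Set beside nuclear-encoded respiratory genes, the family had the higher median in wild-type cells with peroxide and the lower median on the other 4 arrays. The nuclear genes of the respiratory chain and ATP synthase, of which 38 had a value on this array and 35 to 38 on each, had a median of -0.41 (-0.67 to -0.10) there, with 28 below 0 and 7 at least 2-fold lower, against 11.3% of all genes, and all 56 ribosomal protein genes lay above that median. SDH2 and SDH1 of succinate dehydrogenase lay at -2.05 and -1.72. Genes of ATP synthase lay on both sides of 0 there, with ATP15 at 0.41 and ATP7 at 0.31 but ATP14 at -0.63 and ATP2 at -0.51. The list was not limited to complexes with a subunit made on the mitochondrial ribosome. In wild type with KCl the order was turned, with respiratory genes at a median of 0.82 (0.40 to 1.01) and 0 of 56 ribosomal protein genes above it. In the mutant the respiratory genes had medians of 1.11 unstressed, 1.08 in peroxide and 1.17 in KCl, where 0, 4 and 0 of the 56 lay above them. From unstressed to peroxide the mutant's excess differed by a median of -0.05 for respiratory genes and 0.36 for the mitochondrial ribosome, and at the common spread by -1.001 and 0.16.

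Cytosolic ribosomal protein genes, with 123 to 135 values per array, had a lower median than their mitochondrial counterparts on every array. Their medians were -0.002, -0.04, -0.27, -0.34 and -0.85 in the order used above. All 56 genes of the mitochondrial ribosome lay above the cytosolic median on 3 arrays, wild type in peroxide and the mutant in peroxide and in KCl, 53 did for wild type in KCl and 48 for the unstressed mutant. Ribosome biogenesis genes of the cytosol lay lower still, with medians of -0.26, -1.75, -2.87, -0.93 and -2.21 in that order. At 2-fold or more 74 of these 80 genes were lower in the mutant in KCl, where 0 of 56 mitochondrial ribosomal protein genes and 11% of all genes were. These differences between lists were not tested, since each rests on 1 array.

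**Figure D4:**
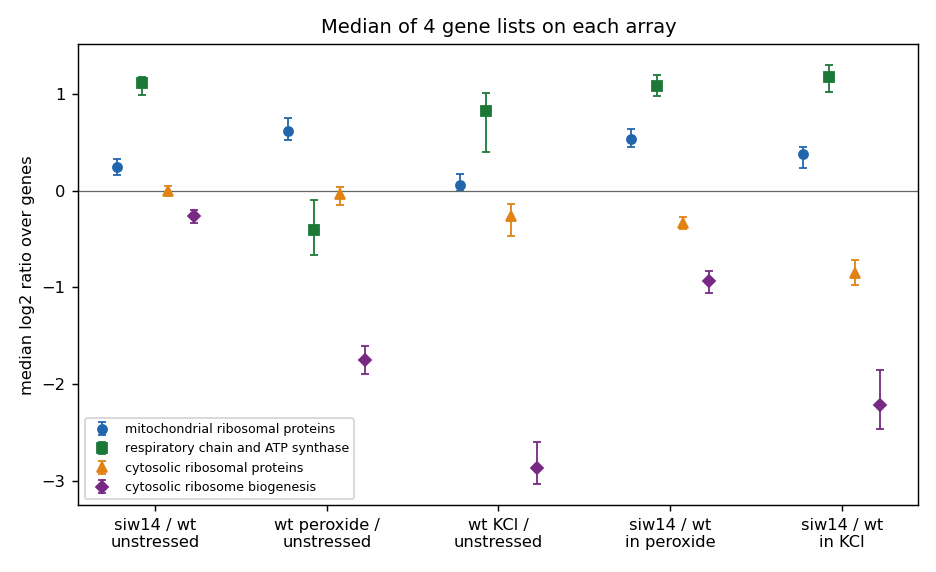
Median log2 ratio (vertical axis) of mitochondrial ribosomal protein, respiratory chain, cytosolic ribosomal protein and ribosome biogenesis genes on 5 arrays (horizontal axis), with bars for the order-statistic 95% interval over genes. The mitochondrial ribosome lies above both cytosolic lists on every array, above the respiratory genes only for wild type in peroxide, and its own lowest median is 0.06, for wild type in KCl.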

How the data were processed

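Polyadenylated RNA was compared on 5 two-colour arrays. The authors' deposited values were 1 number per probe and array, read here as log2 ratios of Cy5 over Cy3 by the dyes in the labels. The base, background correction, normalisation and centring are not given in the sources used here. Natural logarithms were tried as an alternative. No intensities were used, so signal over background is unknown and the number of arrays limits the precision.

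Of 6256 yeast probes, 4075 had 1 symbol in the platform annotation, 0 had several and 2181 had none. Symbols were matched to RefSeq R64 gene names: 3942 were current, 129 were updated and 4 kept. All 56 members were current. Probes of 1 gene were averaged, and 53 control features were left out. Medians, counts and intervals were computed with Python 3.11.15, pandas 2.3.3 and scipy 1.17.1. Medians and intervals were checked on random draws of 56 deposited values with a known shift added. Counts were not checked in this way, and random draws do not hold genes that vary together. There were no replicates, hence no tests and no p-values.

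The members and gene lists were chosen with earlier results of these data known. Lists came from general knowledge of yeast. KGD4 was dropped from the list of other ribosomal proteins by its current name, and RPP1, an RNase P subunit that the symbol pattern also took, from the cytosolic ribosomal proteins after its values were seen. Genes named were the 4 highest and 4 lowest members on each array, members at 2-fold, the 3 highest and 3 lowest per difference, members with a listed role, the 2 extremes at each end of the other lists, and the 3 genes nearest to the family median. Other list genes are named only in part, and a gene named for 1 array may be given on all 5. Alternatives were other scalings, log bases, folds, probe handling and member lists. Promoter and protein sequences were not used here.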

Additional observations from a re-analysis of the deposited data

Results flagged for a closer look

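The respiratory chain and ATP synthase genes, taken as a single list, had medians of opposite sign in the stresses of wild-type cells, at -0.41 in peroxide and 0.82 in KCl. Single genes differed in this. ATP2 of ATP synthase lay at -0.51 and 0.96, but ATP15 at 0.41 and 0.80 and ATP7 at 0.31 and 0.91. Among mitochondrial ribosomal protein genes, those with opposite signs and at least 0.25 in size on both wild-type arrays were MRPL19 (0.79 in peroxide and -0.28 in KCl), MRPL20 (0.33 and -0.43) and RSM22 (0.43 and -0.53). On the mutant arrays RSM7 was the only such gene, at 0.42 in peroxide and -0.47 in KCl. Each value rests on 1 array, and these differences were not tested.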

How the results depend on the processing

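No paired analysis was possible because each comparison has 1 array, and no replicate could be left out. Keeping every probe or only members with all 5 values could move nothing, since each member has 1 probe and all 56 have 5 values. The planned promoter and protein descriptions were not run. With arrays centred on their medians, the small subunit median for wild type in KCl turned from 0.02 to -0.0098. With arrays also scaled to a common spread it was -0.009, and the difference from unstressed to KCl in the mutant turned from 0.12 to -0.084. Under that scaling the unstressed mutant had medians of 0.44 for all members, 0.45 for the large and 0.40 for the small subunit, wild type in peroxide 0.51, and the mutant's difference from unstressed to peroxide 0.16. The counts of members 2-fold higher became 3 in the unstressed mutant, 3 in wild type with peroxide and 3 in the mutant in peroxide, against 12.3%, 8.03% and 11.3% of all genes. The cause was not tested.

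Read as natural logarithms, medians were 0.36 in the unstressed mutant, 0.88 in peroxide-treated wild type, 0.77 in the peroxide-treated mutant and 0.54 in the KCl-treated mutant. The large subunit had 0.90, 0.81 and 0.62 on the last 3 and the small subunit 0.80 and 0.66 on the peroxide arrays. The difference from unstressed to peroxide was 0.52 and that between the wild-type stresses 0.80. Counts 2-fold higher were 1, 24, 18 and 6 on the same arrays, against 9.64%, 19.7%, 19.8% and 18.4% of all genes. With values read as log2, counts 1.5-fold higher were 2, 30, 23 and 12 on these arrays, against 11.8%, 22.9%, 23.2% and 21.9% of all genes. Wild type in KCl had 1, against 21.8%. With the 9 other ribosomal proteins added, FYV4 was the 1 gene 2-fold higher in the unstressed mutant and in the mutant in KCl. The shares of all genes there were 6.18% and 11.4%. The count was 9 in wild type with peroxide and 6 in the mutant in peroxide, against 10.7% and 12.8%. VAR1 was the 1 gene 2-fold lower in the unstressed mutant, wild type with peroxide and the mutant in peroxide. The shares of all genes there were 1.55%, 11.3% and 8.3%. Against named genes alone, the background share above 0 was 46% to 50.5% over the arrays, in place of 49.2% to 52% for all genes. Signal over background was not at hand.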
